A study of Mus musculus with 67 samples.

Results

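The RNA level of the 100 rows described here rose with thapsigargin (Tg) and phorbol 12,13-dibutyrate (PDBu) in cultured Orai1 KO microglia. In WT microglia their means moved little on the scale used, which compresses changes of low rows. They were taken from a table of 45707 rows by their levels, written as log2(CPM+1), where CPM is a count scaled to 1000000 counts in its library. A row was kept when its mean rose by at least 1 in KO cultures with Tg+PDBu against KO vehicle. Its mean in WT cultures also had to move by less than 0.5 with Tg+PDBu and by less than 1 with LPS. These bounds left 166 rows, and the 100 with the largest KO change minus WT change were kept and are called members. Gene names or identifiers do not accompany the rows. Members are therefore written by row number, counted from the top, and what each one does is not known here. For the same reason Orai1 itself could not be checked, and no defining marker of microglia or of another cell type could be checked.

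Microglia are the resident immune cells of the brain. WT animals were Orai1 fl/fl, with loxP sites around the gene, and KO animals were Orai1 fl/fl with Cx3CR1-cre/ERT2, a Cre that acts in Cx3cr1-expressing cells once tamoxifen is given. The KO carried the Cre and the WT did not, so loss of Orai1 and presence of the Cre cannot be told apart. Cultures were primary microglia from the hippocampus of mice at postnatal days 2 to 5, and both genotypes received 1 µM hydroxytamoxifen. They were then treated for 6 h with vehicle (DMSO), with LPS at 10 ng/ml, or with Tg at 0.2 µM and PDBu at 50 nM. WT cultures gave 6 libraries for each treatment, and KO cultures gave 6 with vehicle, 5 with Tg+PDBu and 5 with LPS, from both sexes. A second table held microglia sorted by FACS from whole brain. Those mice were 10 to 12 weeks old, and both genotypes had received tamoxifen 30 to 35 days before. These mice had been injected with PBS (6 libraries per genotype) or with LPS at 1 mg/kg. LPS libraries were taken after 24 h (8 WT, 7 KO) or, in males alone, after 6 h (3 of each genotype).

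Store-operated calcium entry links the calcium stores of the endoplasmic reticulum to the plasma membrane. When the stores empty, STIM proteins in the reticulum open channels whose pore is formed by Orai1, and the calcium that enters activates calcineurin and NFAT transcription factors. Tg blocks the pump that refills the stores and so opens this route, and PDBu, a phorbol ester, switches on protein kinase C. The pair bypasses surface receptors. Tg also disturbs protein folding in the reticulum, which the cell answers with the unfolded protein response. LPS acts through the receptor TLR4 and mainly engages NF-κB and interferon signalling. All of this is background, since no row could be assigned to any of these routes.

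Culture libraries held 7868694 to 16070721 counts each, and sorted libraries 4989974 to 7596706. After a filter on low counts, 15979 rows in culture and 15344 in sorted cells were tested, and all 100 members passed in culture. A row could pass through the KO Tg+PDBu libraries alone, and some members held few or no counts in other groups. One female WT culture (WTF3) carried the level of a male-specific row and stood apart from its label. One female KO culture (KOF15), which gave a vehicle and an LPS library but none with Tg+PDBu, stood apart in several members. Results that rest on either culture are given with and without it. Libraries made from the same culture carry the same number in their names, and the labels do not say which mice a culture or a sorted library came from, so p-values measure the spread between these libraries. In bulk RNA, fewer cells of a type and less RNA per cell cannot be told apart.

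In KO cultures the members rose with Tg+PDBu by 1.00 to 2.23 on the log2(CPM+1) scale, with a median of 1.32. The median of all tested rows moved by -0.13 in the same comparison. In WT cultures the members moved by -0.41 to 0.50 with Tg+PDBu, with a median of 0.20 against -0.15 for all tested rows, and 72 of the 100 lay above 0. With LPS in WT cultures they moved by -0.99 to 0.87, with a median of -0.06 against -0.35 for all rows. KO change minus WT change ran from 0.82 to 1.98. These values chose the members, so they carry no test. The heat map of member levels shows the block of KO Tg+PDBu libraries apart from the other 5 groups for most members.

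**Figure D1:**
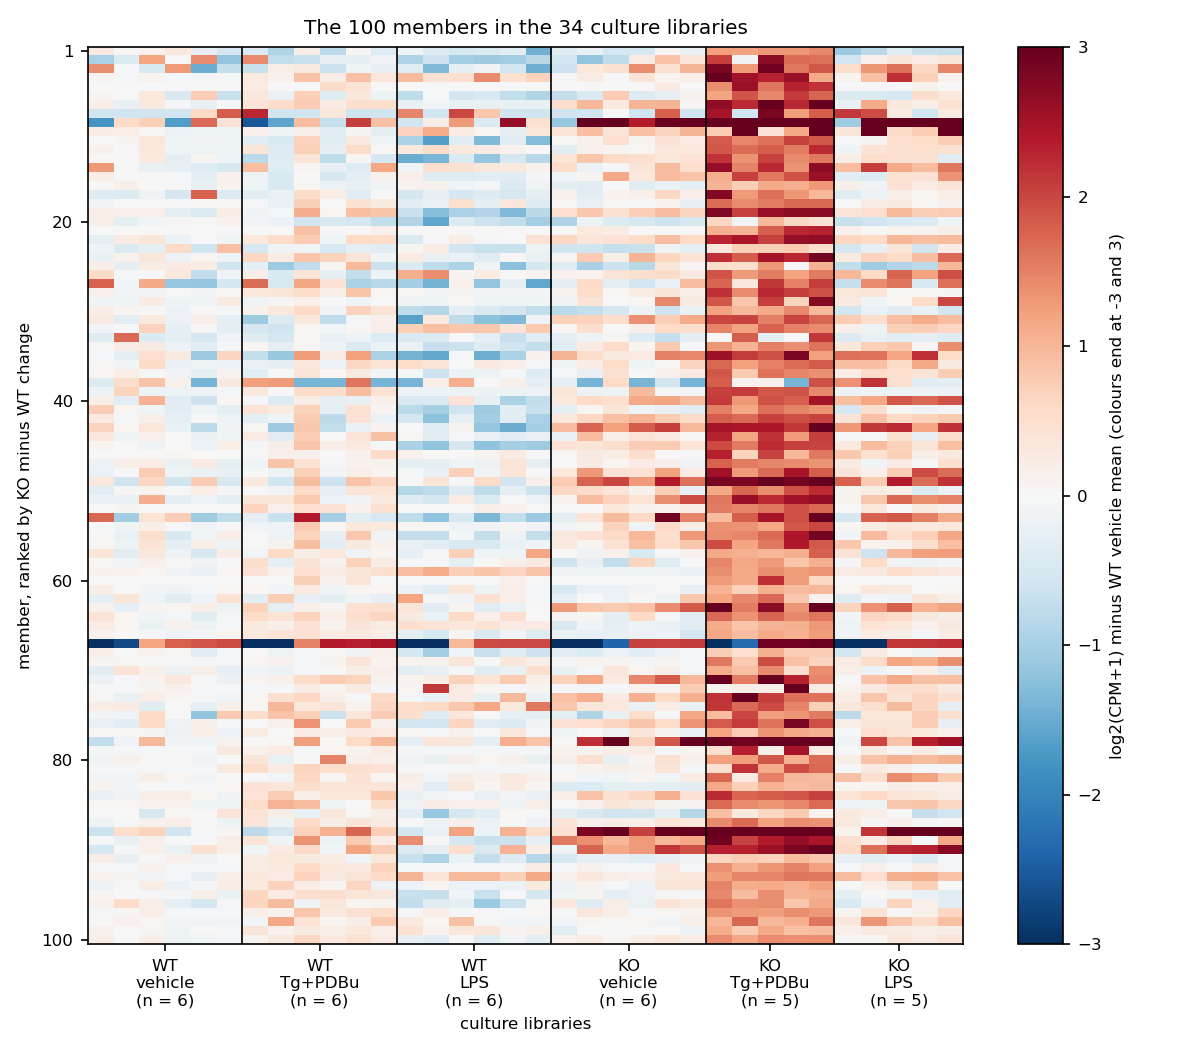
Levels of the 100 members (vertical axis, ranked by KO minus WT change) in the 34 culture libraries (horizontal axis, grouped by genotype and treatment), as log2(CPM+1) minus the mean of the 6 WT vehicle libraries. The 5 KO Tg+PDBu libraries are red for most members, and a few members are also red in KO vehicle and KO LPS libraries.

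Row 257 ranked first. Its levels in KO Tg+PDBu cultures were 243, 237, 254, 254 and 281 CPM, a mean of 254 ± 16.9 (SD, n = 5). In the 6 KO vehicle libraries they ran from 71.4 to 106 CPM with a median of 84.0, so the groups did not overlap, and each Tg+PDBu library was also above every other culture library of either genotype. WT levels were 105 ± 21.7 CPM with vehicle, 81.2 ± 24.9 with Tg+PDBu and 73.0 ± 19.1 with LPS (SD, n = 6 each), which overlap one another. KO cultures with LPS were at 62.8 ± 11.6 CPM (SD, n = 5).

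Row 22580 ranked second and lay at a low level. It was at 8.65, 1.12, 13.5, 6.39 and 6.15 CPM in KO Tg+PDBu cultures and at 0 to 3.14 CPM in the 6 KO vehicle cultures, with a median of 1.13. The second of those Tg+PDBu libraries, from female culture KOF7, lay inside the vehicle range, so the groups overlapped. WT Tg+PDBu cultures ran from 0.36 to 5.13 CPM with a median of 0.90. At the other end of the list, the last member kept was row 34092, with a KO change of 1.15 and a WT change of 0.34. The first row left out was row 233, with 1.16 and 0.35. KO minus WT change was 0.82 in the former and 0.81 in the latter, so no gap separates the members from the rows just outside.

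Members differed widely in level. Their mean in KO Tg+PDBu cultures was at least 100 CPM for 14, from 10 to 100 CPM for 28 and from 1 to 10 CPM for 58, with a range of 1.40 to 768 CPM. The ratio of mean CPM in KO Tg+PDBu to KO vehicle was 1.87 to 107.5, with a median of 3.47, over the 99 members with counts in KO vehicle. It was 2.46 at the median for the 42 members with at least 10 CPM. For the 57 below with counts in KO vehicle it was 5.98, since adding 1 to the CPM compresses changes of low rows. The bounds on the WT change were set on that scale, so a low member could rise by a large ratio in WT and still meet them. Row 15146, for example, had 0 to 3 counts per WT vehicle library and 2 to 8 per WT Tg+PDBu library. All 5 KO Tg+PDBu libraries lay above all 6 KO vehicle libraries in 76 members, which comprised 35 of the 42 more abundant and 41 of the 58 less abundant ones. The same held for 16% of all tested rows, but the rule used this contrast, so nothing is read from the difference.

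The spread between the 5 KO Tg+PDBu libraries also followed the level. The highest library was under 2-fold above the lowest in 48 members, 33 of which were among the 42 more abundant. It was at least 10-fold above in 5 members, and 3 members had a KO Tg+PDBu library at 0. With medians of libraries in place of means, 90 members still changed by at least 1, and the smallest change was 0.17. The male culture KOM8 held the highest KO Tg+PDBu value in 32 members, KOM18 in 24, KOF16 in 22, KOM6 in 14 and KOF7 in 8. When each member's highest KO Tg+PDBu library was left out, its change fell under 1 in 17 members and under 0.5 in 1.

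Between genotypes, every member was higher in KO than in WT after Tg+PDBu, by 0.24 to 4.34 on the log2(CPM+1) scale with a median of 1.41, against 0.31 for all tested rows. All 5 KO libraries were above all 6 WT libraries in 79 members and in 33.7% of all tested rows. The rule used these libraries too, so nothing is read from that difference. In vehicle cultures the KO mean was within 0.5 of the WT mean in 66 members, more than 0.5 above it in 30 and more than 0.5 below it in 4. In 10 of those 30 the KO vehicle mean was at least 1 above the WT vehicle mean. The median difference with vehicle was 0.14 for the members, against 0.16 for all tested rows. Shares of all rows at these cutoffs were not computed, so nothing is read from the counts.

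**Figure D2:**
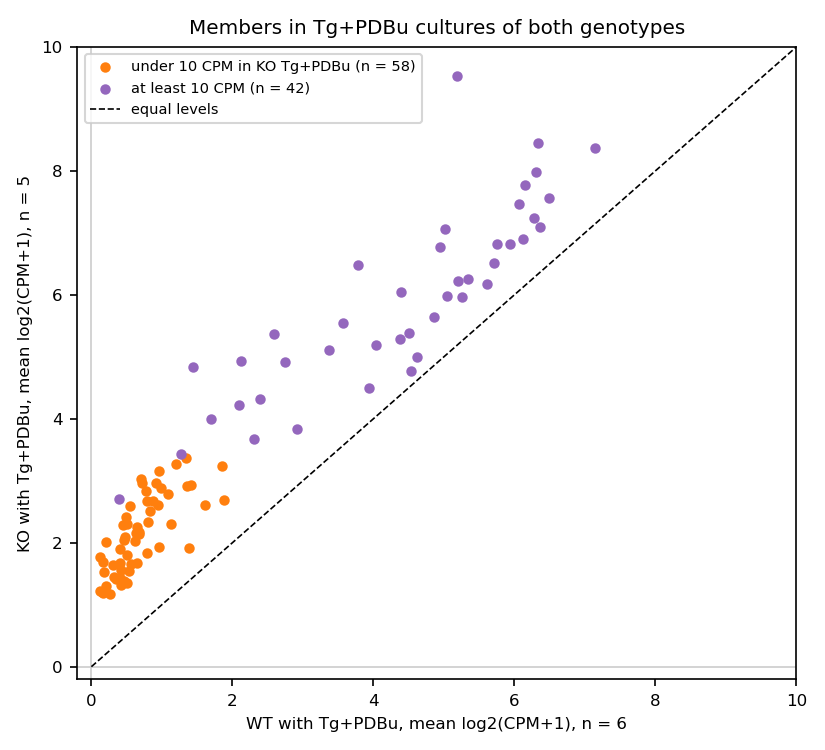
Mean log2(CPM+1) of each member in WT (horizontal axis, n = 6) and KO (vertical axis, n = 5) cultures with Tg+PDBu, coloured by mean level in KO Tg+PDBu. All 100 members lie above the dashed line of equal levels, by 0.24 to 4.34.

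The KO change was seen in each culture that gave both a Tg+PDBu and a vehicle library. The median change of the members was 1.38 in KOF16, 1.11 in KOF7, 1.24 in KOM18 and 1.22 in KOM6, and 95 to 98 of the 100 lay above 0 in each. The 6 WT cultures had medians of 0.04 to 0.38. In 91 members the change was above 0 in all 4 KO cultures, and in 32 it was at least 1 in all 4, against 25.9% and 3.79% of all tested rows. In 60 members the lowest KO culture was above the highest WT culture, against 13.2% of all tested rows. These cultures chose the members, so the counts are a description. In 16 members at least 1 WT culture reached a change of 1 although the WT mean stayed under 0.5. When only these matched cultures were averaged, 78 members kept a KO change of at least 1 and 22 fell below it. The matched change ran from 0.25 to 2.56 with a median of 1.21, and it was above the matched WT change in all 100 members.

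Culture KOF15 shaped part of the list, because its vehicle library entered the KO vehicle mean without a Tg+PDBu partner. Both KOF15 libraries lay below all other KO libraries in 13 members, against 3.20% of all tested rows. A low KOF15 vehicle value lowers the KO vehicle mean and so favours membership, and nothing is read from that excess. Row 17380, the most abundant member, was singled out after its values were seen. It was at 17.5 CPM in KOF15 with vehicle and 18.3 CPM with LPS. The other 5 KO vehicle libraries ran from 211 to 673 CPM and the other 4 KO LPS libraries from 421 to 1333 CPM. In KO Tg+PDBu cultures it was at 598, 703, 830, 530 and 1177 CPM, which overlap the vehicle cultures. Its KO change was 1.47 with KOF15, 0.69 without it and 0.25 over matched cultures, so its place in the list rested on that culture. In WT cultures it was lower, at 10.8 to 131 CPM with vehicle, 5.96 to 170 with Tg+PDBu and 26.7 to 252 with LPS. Without KOF15, 89 of the 100 members kept a KO change of at least 1, and the smallest was 0.54.

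In KO cultures the median member change was 1.32 in females and 1.30 in males. The change was at least 1 in both sexes in 77 members, in females alone in 15, in males alone in 7 and in neither in 1, and none was below 0 in either sex. The difference between the sexes was tested with edgeR's quasi-likelihood test over all rows. It called 0 of the 100 members, against 0% of all tested rows in either direction, and DESeq2 also called 0 members. At an unadjusted p under 0.05, 2 members passed, as did 248 of all 15979 tested rows. The rule averaged these same libraries over both sexes, so the counts and the test describe the chosen members and do not show that the sexes respond alike.

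One member was itself specific to males. In sorted cells row 19565 lay at 81.4 to 171 CPM in the 20 male libraries and at 0 to 0.642 CPM in the 13 female ones. In culture it rose in males of both genotypes. KO males were at 82.7, 82.4 and 85.5 CPM with vehicle and at 152, 151 and 158 CPM with Tg+PDBu. WT males were at 69.8 to 77.8 CPM with vehicle and at 102 to 110 CPM with Tg+PDBu. KO female cultures stayed between 0 and 3.09 CPM. KO Tg+PDBu comprised 2 female and 3 male libraries and KO vehicle 3 of each, so the sex balance entered this member's mean. The 3 libraries of the female WT culture WTF3 were at 45.3, 55.8 and 39.8 CPM, between the sexes. Without WTF3 the bounds held 174 rows, and 85 of the 100 members were kept.

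**Figure D3:**
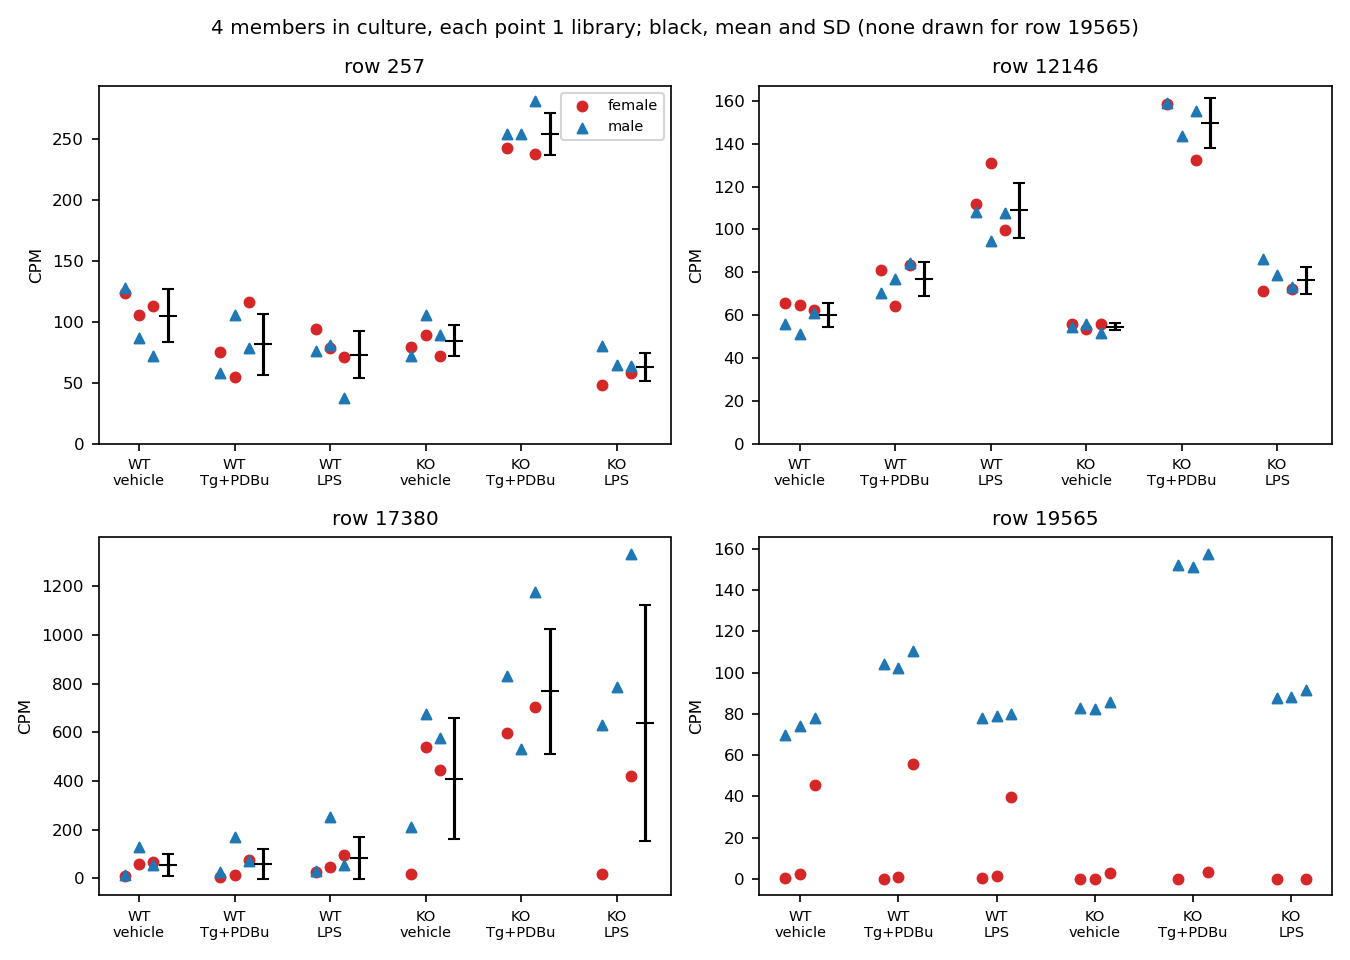
Levels in CPM (vertical axes) of rows 257, 12146, 17380 and 19565 in the 6 culture groups, where each point is 1 library and black marks show mean and SD. Row 257 is high in KO Tg+PDBu alone, row 17380 is low among KO libraries in the 2 from KOF15, and row 19565 separates the sexes apart from culture WTF3.

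The LPS libraries of KO cultures were not used by the rule. Compared with KO vehicle on the log2(CPM+1) scale, the members moved by -0.74 to 1.42 with LPS, with a median of 0.16 against -0.13 for all tested rows, and 98 stayed within 1. The mean with Tg+PDBu was above the mean with LPS in 99 members. The rule chose members for high KO Tg+PDBu means, so nothing is read from that count. In edgeR's test 16 members were higher with LPS and none was lower, while 8.71% of all tested rows were higher and 14.1% lower. Adding 1 to the CPM compresses changes of low members, and fitted log2 changes ran from -4.26 to 3.69 with a median of 0.18. Rises of called members ran from 0.30 to 3.69, the largest in row 11197, a row of low counts. DESeq2 called 21 higher and 0 lower. In edgeR 26 members had an unadjusted p under 0.05 in either direction, as had 5234 of all 15979 tested rows. The KO LPS libraries were compared with the KO vehicle libraries that also chose the members, so nothing is read from the excess of higher members.

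Row 344 was at 3.59 ± 1.73 CPM with LPS (SD, n = 5) and at 1.31 ± 0.65 with vehicle (SD, n = 6), a fitted log2 change of 1.55 ± 0.53 (SE, adjusted p = 0.035, edgeR). The ranges of the groups, 2.28 to 6.35 and 0.54 to 2.33 CPM, overlapped slightly, and the call was lost in 6 of 11 fits that left out 1 library. Row 12322 rose by 3.21 ± 0.93 (SE, adjusted p = 0.013), but from few libraries. Its LPS values were 0.76, 26.9, 1.04, 1.31 and 26.4 CPM, and only KOF16 and KOM8 stood above the vehicle range of 0.77 to 1.74 CPM. With Tg+PDBu it was high in KOF7 (19.6 CPM) and KOM8 (44.6 CPM) and at 0.82 to 1.98 CPM in the other 3, so KOF16 was high with LPS and not with Tg+PDBu. The call was lost without either of those 2 LPS libraries. It was also lost in limma voom, both with cultures as a block and without the block.

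KO and WT cultures were also compared under LPS, where WT LPS had entered the rule only through the bound on its change. With TMM scaling, which assumes that most rows do not move between libraries, 31 members were higher in KO, 20 were lower and 49 did not pass. Some of those 49 had almost no counts to test. Row 4402, for example, had 0 in every KO LPS library and 0 to 1 in WT LPS libraries. The median member difference was 0.76, against 0.06 for all tested rows. Of all tested rows 33.3% were higher and 30.1% lower, so the members' 31% was near the background and their 20% below it. Without a scaling factor, as in the rule, 49 members were higher and 2 lower, and the median of all rows rose to 0.63. The split between higher and lower members under LPS thus changed with the scaling, as did the median of all rows. Without the libraries of KOF15 the split was 31 higher and 13 lower. Both alternative counts come without the share of all rows called, so nothing particular to the members is read from them. On unscaled CPM, all 5 KO libraries were above all 6 WT libraries in 23 members (35.1% of all rows) and below them in 1 (5.94% of all rows).

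That 1 member was row 12146. It was at 71.4, 71.9, 86.1, 78.8 and 73.0 CPM in KO LPS cultures and at 94.4 to 131 CPM with a median of 108 in WT LPS cultures. The fitted KO minus WT difference was -1.13 ± 0.12 (SE, adjusted p = 2.3e-08, edgeR) with TMM scaling and -0.53 ± 0.08 without scaling. With Tg+PDBu the order was the opposite, at 132 to 159 CPM in KO and 64.4 to 84.2 CPM in WT. KO and WT vehicle cultures, at 51.6 to 55.9 and 51.2 to 65.4 CPM, overlapped. This row was therefore higher than vehicle under LPS in WT and under Tg+PDBu in KO, with smaller differences in the other 2 stimulated groups.

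Row 19156 was higher in KO under LPS, at 0.76 to 8.28 CPM against 0 to 0.81 CPM in WT, a difference of 3.42 ± 0.92 (SE, adjusted p = 0.00234, edgeR). The lowest KO library, from KOF15, lay inside the WT range, and without the second KO female LPS library the adjusted p was 0.0892. Row 12322 was higher by 3.30 ± 0.97 (SE, adjusted p = 0.00482), which again rested on the libraries of KOF16 and KOM8. Without one or the other the adjusted p was 0.35 and 0.0847, and in limma voom with cultures as a block it was 0.176. The call was also lost in limma voom without the block. Row 19565 was called lower in KO by -5.42 ± 2.15 (SE, adjusted p = 0.0312), with females near 0 in KO and culture WTF3 the highest among WT females. Without the WTF3 LPS library alone the adjusted p was 0.285. In the fit that left out every WTF3 library, the call was kept.

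Sorted microglia gave libraries that played no part in choosing the members. Rows of the 2 tables were matched by position. Over the 100 members, the Spearman correlation of level between culture and sorted cells was 0.78, and it lay between -0.04 and 0.09 after a shift of 1 to 3 rows between the tables. The points share the row order and differ in age, tissue and library kit. Sorted levels of the members ran from 0 to 547 CPM with a median of 0.97. One member had no counts in sorted cells and 39 were detected in every sorted library. Only 56 of the 100 passed the filter on low counts there, while 83.8% of the rows tested in culture did, and 37 of those 56 had at least 10 CPM in KO Tg+PDBu cultures. The counts that follow concern those 56, which are not all members.

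After LPS for 24 h, sorted WT microglia had 15 of the 56 members higher and 2 lower than vehicle, or 26.8% and 3.57%. Of all tested rows 14.1% were higher and 11.9% lower. Sorted KO microglia had 15 higher and 4 lower, or 26.8% and 7.14%, against 12.6% and 10.8% of all rows. The 2 lists of higher members shared 14, which is 93.3% of each, and no member was called in opposite directions. The same overlap was not computed over all tested rows, so nothing about the members is read from its size. Those 14 had at least 10 CPM in KO Tg+PDBu cultures. Rows at that culture level were called more often in general. Of such tested rows 18.6% were higher in WT and 16.9% in KO, against 15 and 14 of the 37 members at that level. The level came from libraries that the rule used and not from sorted cells, so these shares are not a background matched for sorted level. Among the 19 tested members under 10 CPM, 0 were higher in WT and 1 in KO, against 6.62% and 5.52% of such rows. Of the 16 members higher with LPS in KO cultures, 11 were tested here and 6 were higher in both sorted genotypes, which is 37.5% of the culture list and 42.9% of the 14. For this overlap, too, the share over all tested rows was not computed, and nothing is read from it.

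Row 3625 had the largest rise in WT among the members called. It was at 32.0 to 50.5 CPM with vehicle (median 34.4, n = 6) and at 70.5 to 102 CPM with LPS (median 95.3, n = 8). The fitted change was 1.39 ± 0.17 (SE, adjusted p = 1.3e-06, edgeR). In KO it went from 24.3 to 42.3 CPM (median 35.6, n = 6) to 51.2 to 114 CPM (median 68.2, n = 7), a change of 1.22 ± 0.18 (SE, adjusted p = 1.13e-05). The groups did not overlap in either genotype.

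Row 5316 rose by 1.29 ± 0.22 in WT (SE, adjusted p = 7.71e-05) and by 1.44 ± 0.23 in KO (SE, adjusted p = 3.49e-05). WT levels were 23.6 to 44.8 CPM with vehicle and 36.9 to 99.6 CPM with LPS, where 1 LPS library lay inside the vehicle range. KO levels were 24.6 to 41.8 and 61.2 to 107 CPM and did not overlap. Both rows kept their calls in every fit that left out 1 library and within each of the 2 runs of library numbers.

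Fewer members were lower, and most of those named lost their call in some fits without 1 library. Row 16853 fell by 1.03 ± 0.25 in WT (SE, adjusted p = 0.00297), from 10.2 ± 1.83 CPM (SD, n = 6) to 4.54 ± 1.59 (SD, n = 8), with no overlap. In KO its change was -0.76 ± 0.26 (SE, adjusted p = 0.0367), from 8.75 ± 2.34 CPM (SD, n = 6) to 4.86 ± 1.66 (SD, n = 7). The KO groups overlapped, and the call was lost in 6 of 13 such fits. Row 13214 fell by 0.72 ± 0.24 in WT (SE, adjusted p = 0.0274), from 62.8 ± 15.6 to 34.9 ± 8.20 CPM (SD), and lost the call in 4 of 14 fits. Row 20780 fell by 1.44 ± 0.47 in KO (SE, adjusted p = 0.0251), from 5.79 ± 2.12 to 2.04 ± 1.79 CPM (SD), and lost the call in 3 of 13. None of these lower calls held within either run of library numbers, which had fewer libraries. The KO calls of rows 16853 and 20780 were also lost when only the compared groups were fitted, and that of row 16853 without the filter.

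**Figure D4:**
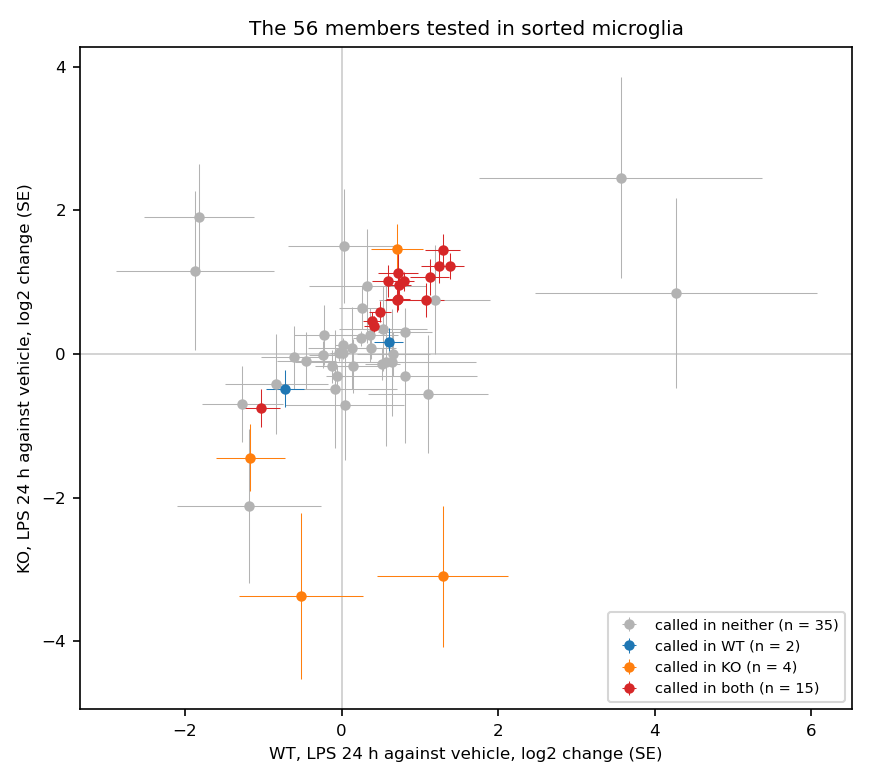
Fitted log2 change with LPS for 24 h in sorted WT (horizontal axis) and KO (vertical axis) microglia for the 56 members tested, with SE bars. Of the 15 members called in both genotypes, 14 lie in the upper right quadrant and 1 in the lower left.

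At 6 h, where all libraries came from males, 11 of the 56 members were higher in WT and 8 in KO, and none was lower in either. Of all tested rows 6.73% were higher and 3.73% lower in the WT males, while the KO males had 4.27% higher and 2.85% lower. The called members were again among the 37 with at least 10 CPM in KO Tg+PDBu cultures. Of all tested rows at that culture level 9.46% were higher in WT and 5.71% in KO, with the same limit as at 24 h. DESeq2 called 12 higher and 2 lower in WT and 11 higher and 0 lower in KO. At an unadjusted p under 0.05, 17 members passed in WT and 18 in KO in edgeR, against 3931 and 3626 of all 15344 tested rows. When only the compared groups were fitted, no member was called in either genotype. The 6 h libraries carry library numbers of their own, so time and run cannot be told apart.

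Row 12558 was at 126, 126 and 42.5 CPM in WT after 6 h and at 37.7, 84.4 and 89.4 CPM in KO. Vehicle libraries of both sexes ran from 18.4 to 27.2 CPM in WT and from 17.1 to 27.7 CPM in KO, so all 6 h libraries lay above them. Its change was 1.91 ± 0.35 in WT (SE, adjusted p = 0.00102, edgeR) and 1.53 ± 0.34 in KO (SE, adjusted p = 0.00939). Row 5316 was at 175, 185 and 52.5 CPM in WT and at 51.0, 109 and 109 CPM in KO, a change of 1.73 ± 0.33 (SE, adjusted p = 0.00148) and 1.35 ± 0.33 (SE, adjusted p = 0.0149). In each genotype 1 library of the 3 was well below the other two. Both KO calls were lost without KO male vehicle library 3 and without either of 2 of the LPS libraries.

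**Figure D5:**
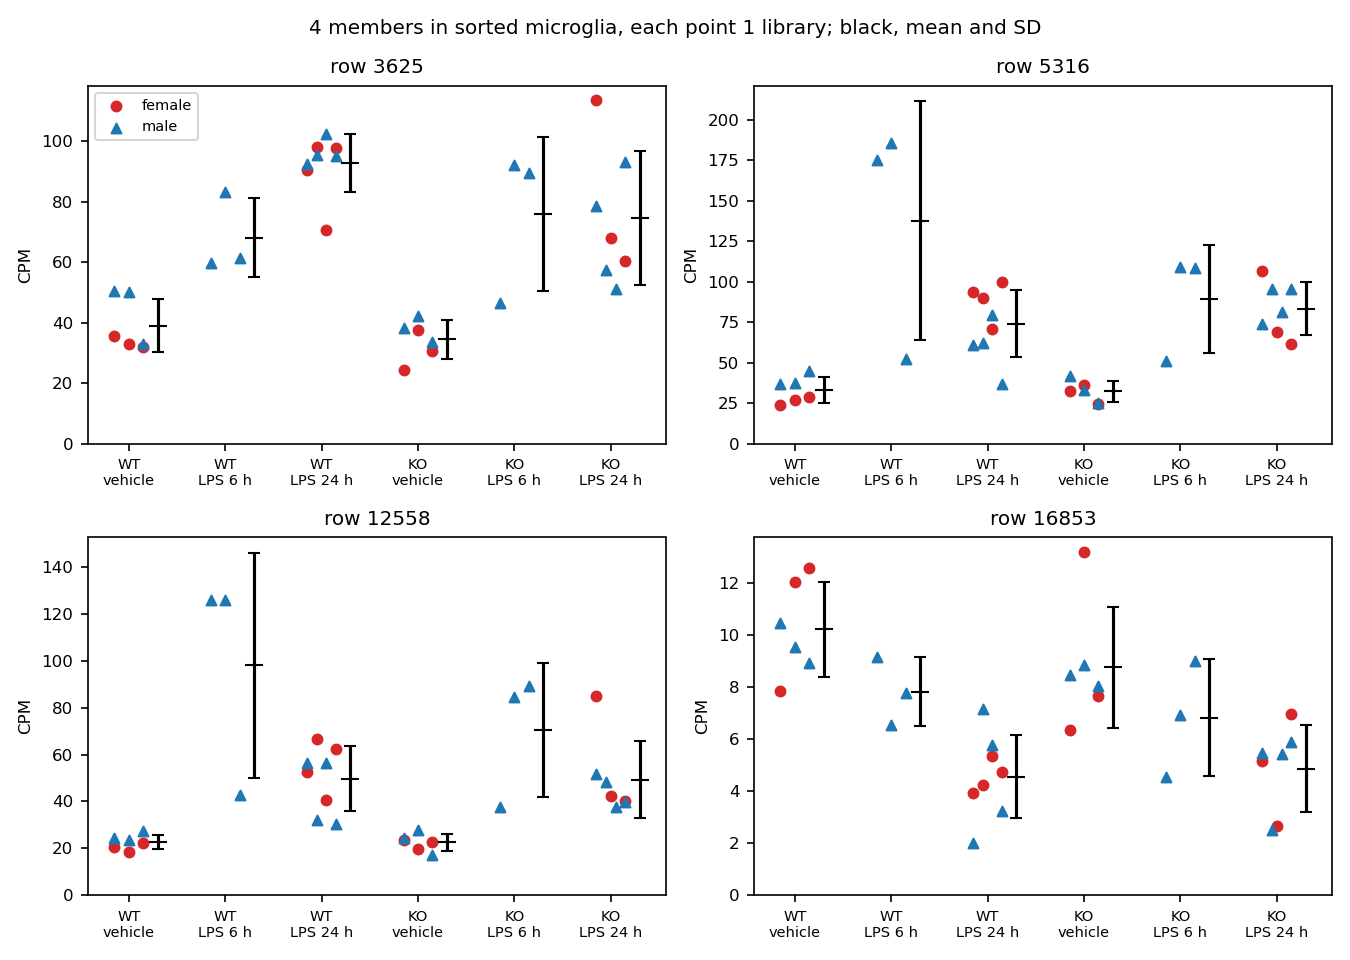
Levels in CPM (vertical axes) of rows 3625, 5316, 12558 and 16853 in sorted microglia by genotype and treatment, where each point is 1 library and black marks show mean and SD. After 24 h of LPS the WT libraries of row 3625 lie at 70.5 to 102 CPM, above all WT vehicle libraries, and those of row 16853 lie below theirs.

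No member was called between the genotypes in sorted cells. The LPS response at 24 h differed between KO and WT in 0 of 56 members in edgeR (0% of all tested rows). At an unadjusted p under 0.05, 4 members passed, against 537 of all 15344 tested rows. KO and WT differed in 0 members with vehicle, where 0.0196% of all rows were higher and 0.00652% lower. They differed in 0 members after 24 h of LPS (0.013% and 0.00652% of rows) and in 0 after 6 h (0.00652% and 0.013% of rows). Unadjusted, 3, 4 and 1 members passed in these 3 comparisons, against 728, 810 and 444 of all 15344 tested rows. DESeq2 called 0 members in each of the 4 comparisons. The median member difference between genotypes was -0.04 with vehicle and -0.01 after 24 h. Row 257, the leading member in culture, had a KO minus WT difference of 0.75 ± 0.36 with vehicle (SE, adjusted p = 1.00), and its LPS response at 24 h was 0.81 ± 0.34 in WT and 0.30 ± 0.34 in KO (SE), with adjusted p of 0.086 and 0.593. The KO minus WT difference in that response was -0.51 ± 0.48 (SE, adjusted p = 1.00). Tg+PDBu was not applied to the sorted cells, so the contrast that chose the members has no counterpart there.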

How the data were processed

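For 34 culture and 33 sorted libraries the authors deposited raw counts, as whole numbers with no normalization. The submitters' processing notes name the genome build GRCm38 and the tools STAR 2.7.10a, Salmon 1.10.1 and Trim Galore 0.6.7. Their order and the counting settings are not given in the sources used here, so reads shared between similar or overlapping genes could not be assessed. Libraries were made from 100 ng (culture) and 0.97 ng (sorted) of RNA with different kits, per the labels' protocols. Metadata supplied with the sorted counts describe cultured microglia, and the labels were followed. CPM was computed from column sums with a pseudocount of 1. Rows were filtered with filterByExpr (minimum count 10, minimum total 15), scaled by TMM and tested, two-sided, with edgeR 4.0.16 (quasi-likelihood F test, R 4.3.3), 1 coefficient being fitted per combination of genotype, sex, treatment and time. p-values were Benjamini-Hochberg adjusted over all tested rows, and rows under 0.05 were called. Each SE was the log2 change divided by the square root of F. CPM values are unscaled, while fitted changes are TMM-scaled. DESeq2 1.42.0, limma 3.58.1, RLE scaling, other filters and leaving out single libraries were alternatives. Counts of members called under these alternatives come without the share of all rows, so no excess is read from them. Libraries sharing a culture number deviated together, with a correlation of 0.12 to 0.53 in 30 of 30 pairs. Pairs of different cultures ran from -0.40 to 0.27 with a median of -0.12, and 8 of 67 were above 0.1. Deviations were taken from means of few libraries, which pushes pairs of different cultures below 0. The numbers, which come from the library names, were taken to pair the cultures. This pairing entered only the changes by matched culture and limma voom with cultures as a block, where the correlation within cultures was 0.301. The edgeR fits held no term for culture, so their p-values treat libraries of the same culture as independent. The scripts were tested on simulated counts. No replicates were merged. Per comparison, no more than 2 higher and 2 lower members were named, by size of change among called members whose mean log2 CPM was 1 or more, besides the 2 leading members and those at the end of the list. The members and lists were chosen with earlier results of these data known. No interval was computed for single counts, and SD and SE cover counting error as well as spread. The reads carry no molecular identifiers.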

Additional observations from a re-analysis of the deposited data

Results flagged for a closer look

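Among 76 groups of 4 to 10 libraries, checked for the named members and for the median of all members, 9 held a library far from the others. Chance flags about 1 in 20 groups where values are normally distributed, which was not checked for these CPM values. In culture, row 344 reached 3.22 CPM in WT female vehicle library 1, and row 22580 reached 5.13 CPM in WT female Tg+PDBu library 1. Row 19156 was high in KO male vehicle library 2 (17.8 CPM) and in WT female Tg+PDBu library 3 (12.1 CPM), which comes from culture WTF3. In sorted cells, row 3625 was low in WT female LPS 24 h library 3 (70.5 CPM) and row 12558 was high in KO female LPS 24 h library 1 (84.9 CPM). Row 13214 was high in WT female vehicle library 2 (93.6 CPM) and in WT male LPS 24 h library 2 (53.4 CPM), and row 16853 was high in KO female vehicle library 2 (13.2 CPM). The causes of these values were not tested.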

How the results depend on the processing

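Membership depended on the scale and on the pseudocount. With CPM from TMM effective library sizes, 76 rows met the bounds and 66 of the 100 members were among them. On that scale the KO change stayed above the WT change in all 100 members, with a smallest difference of 0.60, but 16 members had a WT change of at least 0.5. Pseudocounts of 0.5 and 2 each kept 64 members. Leaving out 1 library gave 143 to 201 rows within the bounds and kept 80 to 100 members. Without KOF15, chosen after seeing the data, 143 rows met the bounds and 88 members were kept. For KO against WT under LPS, calls ran from 36 to 54 when 1 library was left out. Without KOF15 it gave 44 calls, and row 19565 was no longer called. With cultures as a replicate block (limma voom) 43 members were called, 26 higher and 17 lower, with the numbers pairing the cultures, and KO LPS against vehicle gave 22. In sorted cells a block on the title number gave 15 (WT) and 18 (KO) calls at 24 h. Row 12322 and row 19565 lost their calls under LPS in limma voom both with the culture block and without it. No other named row lost its call with a block. Within the first and second run of library numbers, LPS for 24 h gave 10 and 7 calls in WT and 11 and 7 in KO, from fewer libraries. At 6 h, fitting only the compared groups gave 0 calls in both genotypes, with adjusted p of 0.0791 to 0.205 for the named rows. Leaving out 1 library there gave 7 to 13 calls in WT, with 7 without LPS library 1. In KO it gave 1 to 15, with 5 without vehicle library 3, 15 without LPS library 1, 2 without LPS library 2 and 1 without LPS library 3. The cause was not tested. Comparisons with 0 members called stayed at 0 under every alternative run. No result reversed. Low counts limit the 58 members under 10 CPM most.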
